A study of Mus musculus with 6 samples.

Results

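The genes described here repair broken or crosslinked DNA by homologous recombination and the Fanconi anaemia pathway, or signal through the DNA damage checkpoint. They were chosen by name, as 34 listed genes, and a gene with several probe sets was read from the brightest. Of these, 32 were measured, out of 18192 genes with a probe set of their own and 13232 that passed the filter on dim probe sets. All 32 passed that filter, a mean intensity of 18.9 over the 6 arrays. Xrcc2 and Rbbp8 were not analysed here.

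Mouse bone marrow was sorted for cells with both Ter-119, found on red cell precursors, and CD71, the receptor for transferrin, which together mark nucleated erythroid precursors. The Rb-null group (3 arrays, titled Mutant) had the genotype EpoR-GFPcre/+; Rb fl/fl. The control group (3 arrays) had the genotype EpoR-GFPcre/+; Rb fl/+. Both groups therefore carried a Cre recombinase at 1 allele of the erythropoietin receptor gene, which drives it in cells that use this gene, and the controls also had 1 floxed Rb allele. The sources used here do not give the animals' age. Whether the arrays of a group are separate animals is not stated either, so the p-values cover the spread among these arrays alone, and that spread may be technical.

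Homologous recombination rebuilds a broken chromosome by copying an intact sister. The MRE11, RAD50 and NBN proteins sense the break, nucleases trim its ends, and BRCA1, BRCA2 and PALB2 act together to start the exchange of strands. The Fanconi core complex attaches ubiquitin to FANCD2 and FANCI at crosslinked DNA and stalled forks. The kinases ATM and ATR, acting through CHEK2 and CHEK1, hold the cell cycle until repair is done. Many of these genes are transcribed most in S phase, and several are known targets of E2F factors, which the Rb protein restrains.

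No common shift of the repair and checkpoint genes was detected between Rb-null and control cells. H2ax, Clspn and Brca1 were 1.89-fold, 1.60-fold and 1.58-fold as high in Rb-null cells as in controls. Rad54l, Fancg and Fanci stood at 0.710, 0.736 and 0.769 times the control level, and none of these 6 genes had overlapping groups. The other 26 lay between log2 fold changes of -0.45 and 0.26. No gene passed limma's test at adjusted p under 0.05 over all 13232 genes (0%), and 0 of the 32 did (lowest limma adjusted p 1.00, with 2 at unadjusted p under 0.05).

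Over the 32 genes the median log2 fold change was -0.02, with 15 above 0 and 17 below. Over all tested genes the median was -0.04, and 45.4% were above 0. The median of the 32 within the numbered pairs was 0.06, -0.12 and -0.03 for pairs 1, 2 and 3. It moved to 0.08 without Rb-null replicate 3 and to -0.20 without control replicate 3. Without both arrays numbered 3 it was -0.03, again with 15 genes above 0. Groups did not overlap for 3 genes on the higher side, where 5.13% of all tested genes did so, and for 3 on the lower side, against 4.78%. Of the 32 genes, 4 were higher in each of the 3 pairs (18.4% of all tested genes) and 9 were lower (24.1%). At unadjusted p under 0.05 there were 2 genes in all (4.06% of all tested genes), 2 higher (2.55%) and 0 lower (1.51%). With the replicate number as a block, 3 higher genes (7.77%) and 6 lower ones (9.14%) had an unadjusted p under 0.05, and again 0 passed after adjustment (0% of all tested genes, lowest limma adjusted p of the 32 genes 0.0983).

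**Figure D1:**
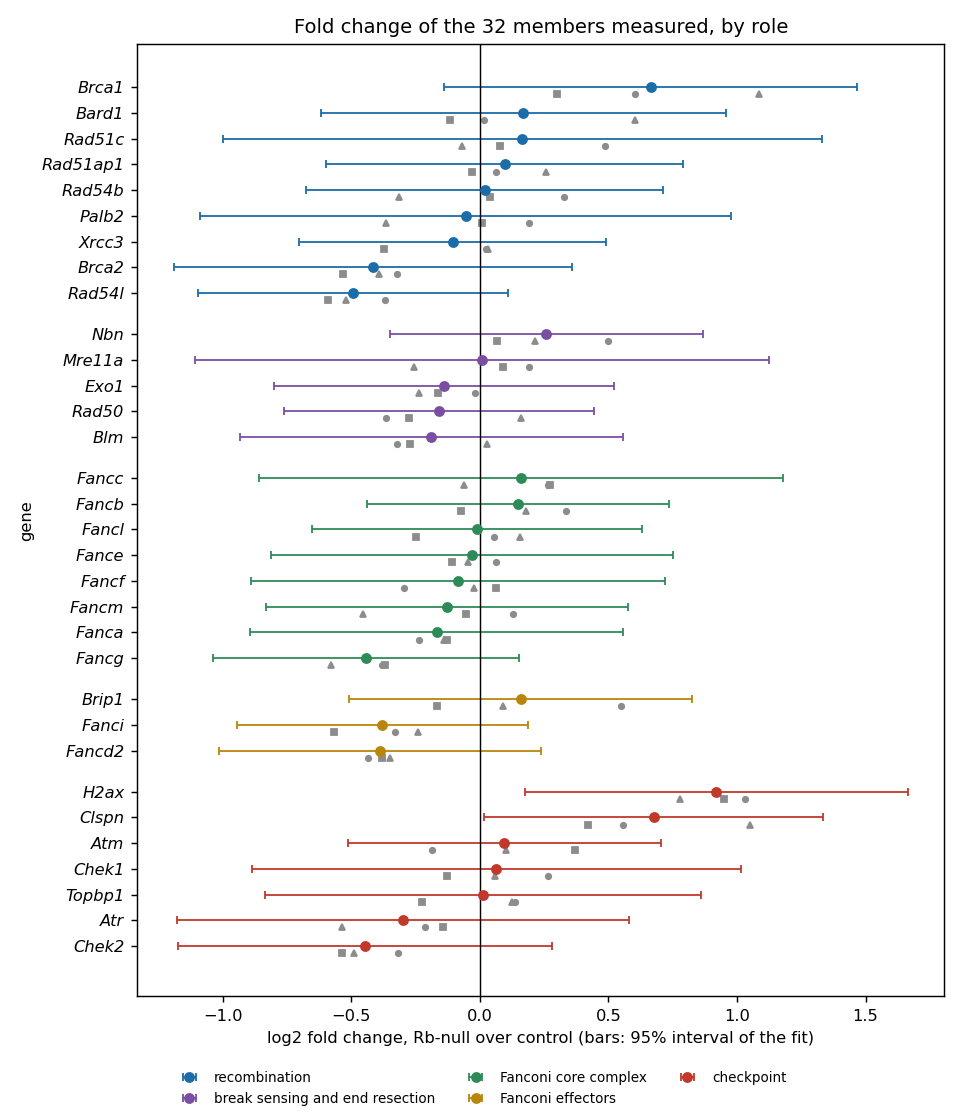
Log2 fold change of Rb-null over control (x axis) for each of the 32 genes (y axis), coloured by role, with bars for the 95% interval of the fit. Small grey symbols give pairs 1 (circle), 2 (square) and 3 (triangle). The intervals of H2ax and Clspn lie above 0, and the other 30 cross it.

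Array quality and cell content were as follows. The deposited array medians lay between 23.3 and 31.2, and with 3 arrays a group the precision is set by their number. Rb1 itself read 4334, 3277 and 3092 on Rb-null arrays 1, 2 and 3, and 2923, 2025 and 1553 on control arrays 1, 2 and 3. The probe set's place relative to the floxed part is not known here, so this does not check the labels. All values below are intensities after quantile normalization, taken back from the log2 scale. Of 12 erythroid markers 7 were measured, with a summed intensity of 38931 to 40646 on Rb-null arrays and 36340 to 39921 on control arrays. All 10 granulocyte markers were measured, at 26589 to 48068 in Rb-null and 36381 to 48286 in control. Their median log2 fold change was -0.45, with 10 of 10 below 0, but -0.054 without Rb-null replicate 1 and -0.94 without Rb-null replicate 2. B lineage markers, 6 of 8 past the filter, summed to 246 to 447 in Rb-null and 420 to 857 in control. Their median was -0.55, or -0.34 without Rb-null replicate 1 and -0.35 without control replicate 3. Macrophage markers, 8 of 8 measured, summed to 1314 to 1912 and 1444 to 3007 (Rb-null and control). Their median was -0.31, with 7 of 8 below 0. It was -0.60 without control replicate 1 and 0.0072 without control replicate 3. The sort was checked on these 7 erythroid markers only. Among markers of these types that passed the filter none was at 0, and the lowest single value was 10.1, for the B lineage gene Vpreb1. The filter takes out dim markers first, such as Ebf1 of the B lineage, so this says nothing of the dim ones. Of 6 T and NK markers Nkg7 alone passed the filter, with a log2 fold change of -0.28, or 0.062 without Rb-null replicate 3. Of 5 megakaryocyte markers 3 passed, with a median of -0.24, or 0.18 without control replicate 3. Cd3e, Cd3g and Cd2 of the T and NK list, and the megakaryocyte genes Gp1bb and Ppbp, were on the array but below the filter. In bulk RNA, fewer cells of a type and less RNA per cell cannot be told apart, and the part these cells play in the results below was not tested.

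Among the checkpoint genes H2ax gave the highest fold change. It encodes the histone variant H2AX, which ATM and ATR phosphorylate in the chromatin around a break. H2ax read 3582, 5537 and 5381 on Rb-null arrays 1, 2 and 3, against 1744, 2856 and 3134 on control arrays 1, 2 and 3. Every Rb-null array lay above every control array, and array 1 was the lowest of its group on both sides. The means were 4833 ± 1087 in Rb-null cells and 2578 ± 735 in controls (SD, n = 3 each). The log2 fold change was 0.92 (SE 0.33, 95% interval 0.18 to 1.66), with pair differences of 1.03, 0.95 and 0.78 (limma adjusted p = 1.00). H2ax alone of the 32 passed in a fit with the replicate block and trend and robust moderation (limma adjusted p = 0.0111). That fit called 3.57% of all tested genes, 2.18% higher and 1.39% lower.

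Clspn encodes claspin, the adaptor through which ATR activates CHEK1 at stalled forks. It read 959, 989 and 881 on the Rb-null arrays, against 647, 734 and 417 on the control arrays. The Rb-null values lay close together at 943 ± 56.0, while the controls averaged 600 ± 164 (SD, n = 3 each), control array 3 being the lowest. On the log2 scale the fold change was 0.68 (SE 0.29, 95% interval 0.02 to 1.34; limma adjusted p = 1.00). Without control replicate 3 it was 0.44. A second Clspn probe set gave 0.89 (SE 0.27), higher in each pair and with no overlap.

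Chek2, the kinase that ATM activates, stood the other way. It read 301, 257 and 167 on the Rb-null arrays, against 379, 380 and 241 on the control arrays. Each Rb-null array was below the control array of its number, but the groups overlapped, since both arrays numbered 3 were low. This gave a log2 fold change of -0.45 (SE 0.32, 95% interval -1.18 to 0.28; limma adjusted p = 1.00). Without Rb-null replicate 3 it was -0.22, without control replicate 3 it was -0.65, and without both -0.43. Atr, the kinase that answers stalled forks, was dim, with 13.4 to 54.8 in Rb-null cells and 26.6 to 62.3 in controls, and had -0.30 (SE 0.39).

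The remaining checkpoint genes were near 0. Atm, the kinase that answers breaks, had a log2 fold change of 0.10 (SE 0.27). Chek1, which ATR activates, had 0.06 (SE 0.42), while the 3 further Chek1 probe sets past the filter gave 0.35, -0.10 and 0.16. Topbp1, the activator of ATR, had 0.01 (SE 0.37), and a second, dimmer probe set 0.46 (SE 0.31). Signs of Atm, Atr, Chek1 and Topbp1 each turned when 1 array was left out. For these 4 genes no difference beyond the array spread was detected, and their 95% intervals reached from -1.18 for Atr to 1.02 for Chek1.

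**Figure D2:**
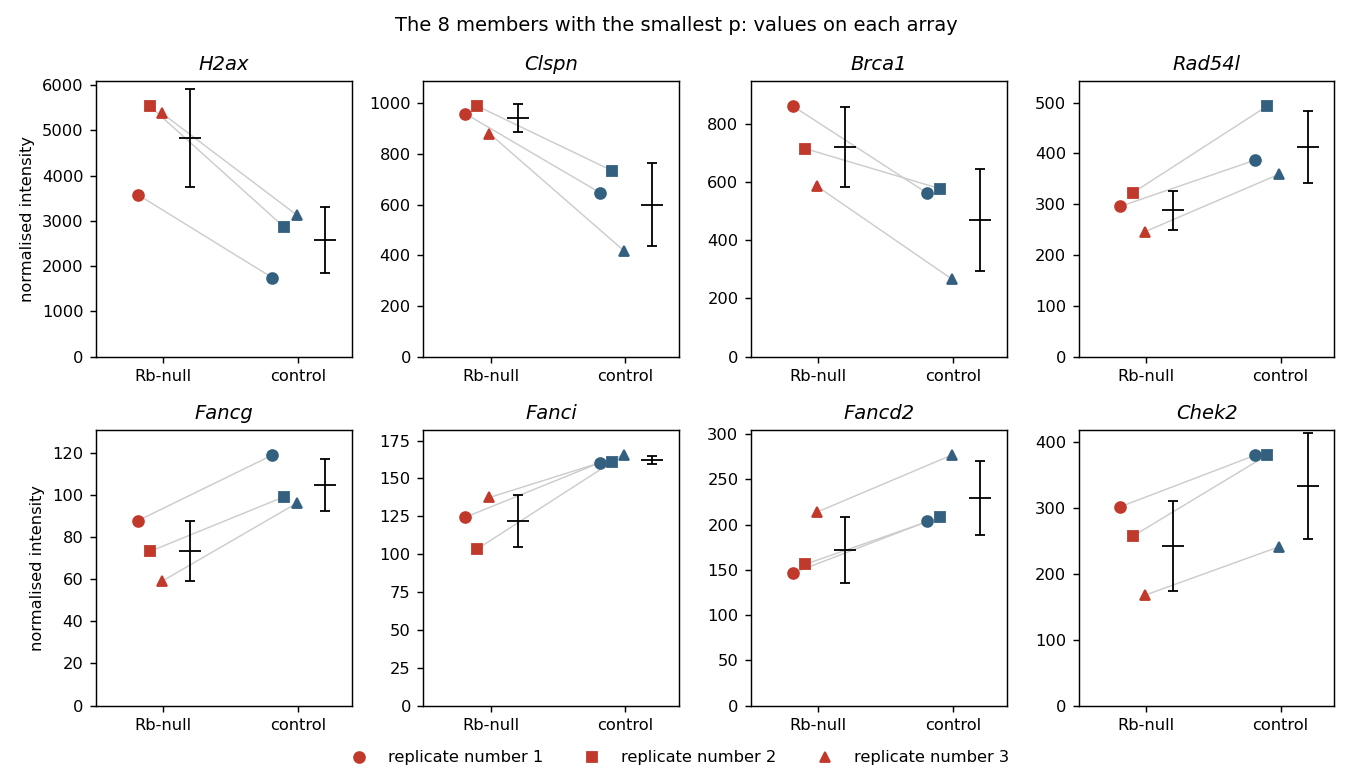
Normalised intensity (y axis) on each array for the 8 genes with the smallest p, Rb-null left and control right (x axis). Symbols mark the replicate number, grey lines join arrays of 1 number, and black bars give mean and SD (n = 3). H2ax, Clspn and Brca1 lie higher in Rb-null cells, and the other 5 genes lower, on each pair of arrays.

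In the recombination group, Brca1 read higher in Rb-null cells and its partner in the pathway, Brca2, lower, but both 95% intervals crossed 0. Brca1, a ubiquitin ligase that promotes end trimming, read 860, 714 and 584 on the Rb-null arrays, against 560, 577 and 267 on the control arrays. The groups did not overlap, though Rb-null array 3 was only slightly above control array 2. The log2 fold change was 0.66 (SE 0.35, 95% interval -0.14 to 1.47; limma adjusted p = 1.00), and 0.31 without control replicate 3. All 4 Brca1 probe sets were above 0 and higher in each pair, with 0.94 (SE 0.30), 0.63 (SE 0.33) and 0.56 (SE 0.32) for the other 3.

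Rad54l encodes a motor protein that works on DNA during strand exchange. It read 296, 322 and 246 on the Rb-null arrays, against 387, 493 and 359 on the control arrays. Every Rb-null array lay below every control array, with means of 288 ± 38.9 and 413 ± 70.8 (Rb-null and control, SD, n = 3 each). Its log2 fold change was -0.49 (SE 0.26, 95% interval -1.10 to 0.11; limma adjusted p = 1.00). The further Rad54l probe sets past the filter gave -0.43 (SE 0.38) and -0.27 (SE 0.34). A dimmer one, below the filter, read 16.4, 25.7 and 14.5 as deposited on the Rb-null arrays, against 15.7, 11.3 and 3.8 on the control arrays.

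Brca2, the gene whose inherited loss predisposes to breast and ovarian cancer, ranged from 161 to 294 in Rb-null cells and from 216 to 387 in controls. It was lower in each pair, by -0.32, -0.53 and -0.39. The log2 fold change was -0.42 (SE 0.34, 95% interval -1.19 to 0.36). That value was -0.17 without Rb-null replicate 3, -0.27 without control replicate 2 and -0.67 without control replicate 3. Palb2, which joins BRCA1 to BRCA2, had -0.06 (SE 0.45), and Bard1, the partner of BRCA1 in its ligase, 0.17 (SE 0.35). Both signs turned without the arrays numbered 3, to 0.10 and -0.05. The other recombination genes gave 0.17 (SE 0.51) for Rad51c, 0.10 (SE 0.30) for Rad51ap1, -0.11 (SE 0.26) for Xrcc3 and 0.02 (SE 0.30) for Rad54b, a relative of Rad54l. Xrcc3 and Rad54b were dim, at no more than 40.8 and 36.9 on any array. Probe sets of Rad51ap1 disagreed in sign, from -0.31 to 0.37. A second, dimmer Rad51c probe set gave 0.64 (SE 0.41), higher in each pair, though by only 0.00024 in pair 2. Over the 9 recombination genes measured the median was 0.02, with 5 above 0 and 4 below. It was 0.25 without Rb-null replicate 3 and -0.17, with 2 above 0, without control replicate 3.

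Genes that sense and trim breaks showed little difference. Nbn, the subunit that recruits ATM, had the highest value at 0.26 (SE 0.27) and was higher in each pair. Its partners Mre11a, the nuclease, and Rad50 had 0.01 (SE 0.49) and -0.16 (SE 0.26). Exo1, an exonuclease for long trimming, had -0.14 (SE 0.29), with a second probe set at 0.12 (SE 0.34). Blm, the helicase lost in Bloom syndrome, had -0.19 (SE 0.33). The median of these 5 was -0.14, and it ran from -0.28 without control replicate 3 to 0.057 without control replicate 1. Single arrays also moved Nbn to 0.16 (without control replicate 3) and Rad50 to -0.039 (without control replicate 2).

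In the Fanconi pathway Fancg, Fanci and Fancd2 had lower levels in Rb-null cells in each of the 3 pairs. Fanca was lower in each pair too, with a smaller log2 fold change of -0.17. Of all tested genes 24.1% were lower in each pair. Fancg, a core complex subunit, read 87.6, 73.1 and 59.0 on the Rb-null arrays, against 119, 99.1 and 95.9 on the control arrays. No Rb-null value reached a control value. The fitted log2 fold change was -0.44 (SE 0.26, 95% interval -1.04 to 0.15; limma adjusted p = 1.00), and a dimmer probe set gave -0.15 (SE 0.30).

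Fanci encodes the partner that carries ubiquitin together with FANCD2. It read 124, 103 and 137 on the Rb-null arrays, against 160, 161 and 165 on the control arrays. The controls were tightly grouped at 162 ± 2.78 and the Rb-null arrays lay below them at 122 ± 17.1 (SD, n = 3 each). This came to a log2 fold change of -0.38 (SE 0.25, 95% interval -0.94 to 0.19; limma adjusted p = 1.00).

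Fancd2 read 146, 156 and 214 on the Rb-null arrays, against 204, 208 and 277 on the control arrays. The groups overlapped because both arrays numbered 3 were high, yet the pair differences were close to each other at -0.44, -0.38 and -0.35. The log2 fold change was -0.39 (SE 0.28, 95% interval -1.01 to 0.24; limma adjusted p = 1.00). Without control replicate 3 it was -0.25. Its other probe sets past the filter gave -0.35 (SE 0.28) and -0.20 (SE 0.25), so these 3 were below 0. A dimmer one, below the filter, read 6.2, 11.0 and 37.7 as deposited on the Rb-null arrays, against 8.3, 7.8 and 12.5 on the control arrays. The helicase Brip1, also a Fanconi gene, had 0.16 (SE 0.29).

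The other core complex subunits lay near 0. Their log2 fold changes were -0.17 for Fanca, 0.15 for Fancb, 0.16 for Fancc, -0.03 for Fance, -0.08 for Fancf, -0.01 for Fancl, the ubiquitin ligase subunit, and -0.13 for Fancm, the DNA translocase. Their SE ran from 0.26 for Fancb to 0.45 for Fancc. Fancm depended on the probe set, since the others gave 0.53 (SE 0.31) and 0.47 (SE 0.34), both higher in each pair. Probe sets of Fancb, Fancc and Fance disagreed in sign too. The core complex median was -0.06 over 8 genes, with 2 above 0 and 6 below. It ran from -0.13 without Rb-null replicate 1 to 0.0076 without Rb-null replicate 2, and 4 genes lay above 0 without Rb-null replicate 2, Rb-null replicate 3 or control replicate 3.

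**Figure D3:**
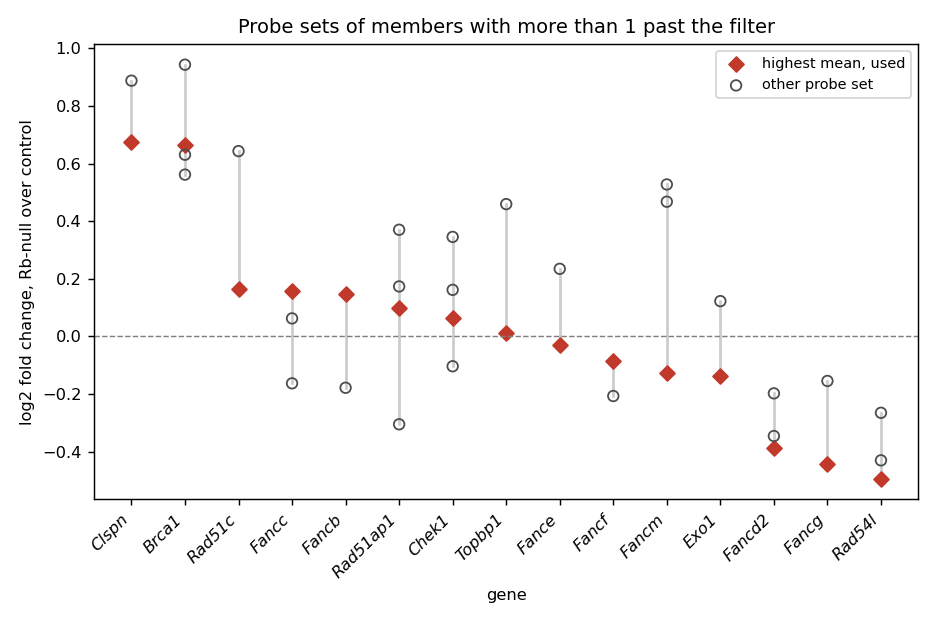
Log2 fold change of Rb-null over control (y axis) of every probe set past the filter, for the 15 genes with more than 1 (x axis). Filled diamonds are the probe sets used and open circles the others. All probe sets of Brca1 and Clspn lie above 0 and all of Fancd2, Fancg and Rad54l below it, while 7 genes have probe sets on both sides.

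Probe sets of 1 gene did not always give the same sign. Among the 15 genes with several bright enough probe sets, 7 had opposite signs (46.7%), against 46.2% of 5415 such genes in all. H2ax, Brca2, Chek2 and Fanci each rest on a single probe set past the filter.

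Values also differed between replicate numbers. The range of the 3 pair means exceeded the gap between group means for 27 of the 32 (84.4%), close to the 84.5% of all tested genes. A range of 3 means, each over fewer arrays, tends to exceed a gap between group means even with no effect of the number. These counts therefore do not show which difference is larger. The lowest of the 6 values fell on an array numbered 3 for 21 of the 32 genes (65.6%), against 44.5% of all tested genes. Rad51c read 302, 211 and 76.3 on Rb-null arrays 1, 2 and 3, against 211, 199 and 80.9 on the control arrays, so both arrays numbered 3 were low. Mre11a followed the same order, with 131, 112 and 32.1 in Rb-null cells and 113, 104 and 41.5 in controls. Fancc went the opposite way, with 225, 238 and 479 in Rb-null cells and 184, 194 and 501 in controls. Palb2 did likewise, at 334 on Rb-null array 3 and 435 on control array 3, against 153 to 179 on the other 4 arrays. The sources used here do not say what a replicate number stands for.

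**Figure D4:**
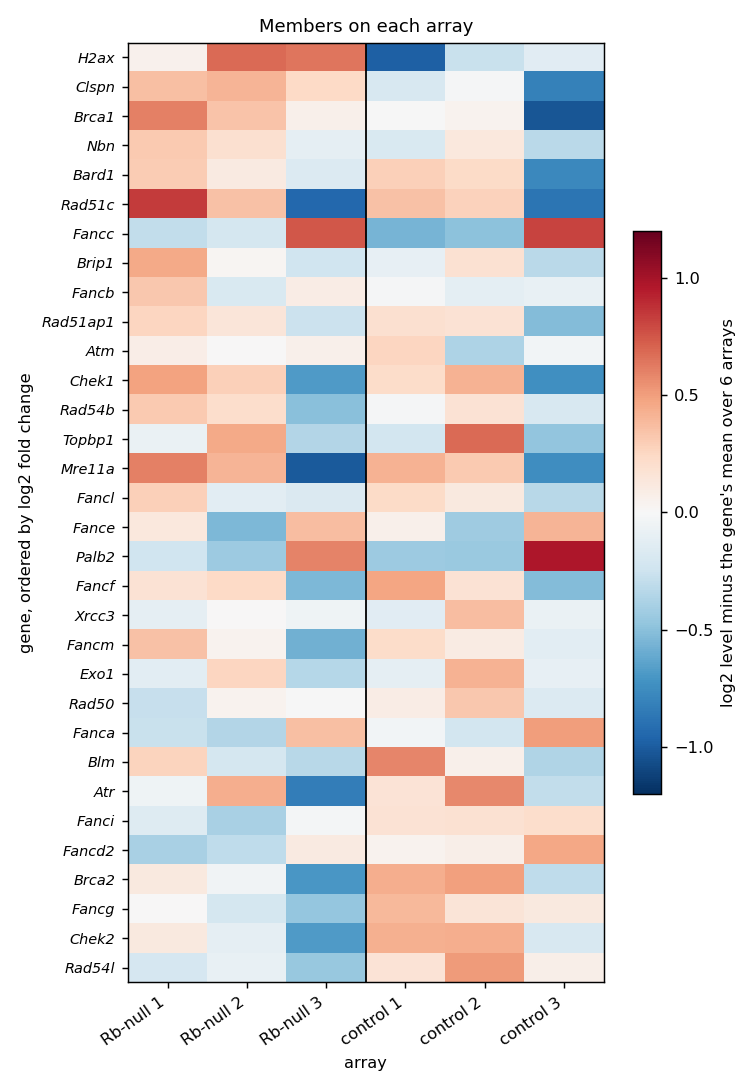
Heat map of the 32 genes (y axis, ordered by log2 fold change) on the 6 arrays (x axis, Rb-null left of the line), as log2 level minus the gene's mean over the arrays. Columns numbered 3 stand apart in both groups, low for genes such as Rad51c and Mre11a and high for Fancc and Palb2.

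Only 11 genes kept the sign of their fold change under all of the alternative settings run for them, up to 18 each. They were H2ax, Clspn, Brca1 and Nbn, all above 0, and Rad54l, Fancg, Fanci, Fancd2, Chek2, Brca2 and Rad50, all below. Within pair 3, though, Rad50 was higher in Rb-null cells, by 0.16. The replicate block, the moderation and the filter leave a fold change as it is, so those settings could not turn a sign. The share of all tested genes that kept their sign is not given here. The 95% interval stayed within a log2 fold change of 1 either way for 18 of the 32 genes and reached past it for 14, so for those 14 a difference of that size stayed within the error.

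The letters around the gene starts were read because several of these genes are known E2F targets. RefSeq windows of 300 bases, 250 before and 50 after the gene start (build GRCm38.p6), were found for 26 of the 34 genes. The other 8, H2ax, Fancd2, Nbn, Rad50, Exo1, Rad54b, Xrcc2 and Rbbp8, had no window and were not searched. The E2F motif searched was TTTCCCGC, TTTCGCGC, TTTGCCGC or TTTGGCGC on either strand. It was present for 7 of the 26 genes (26.9%), against 4.40% of 10639 genes tested on the arrays and 2.60% of all 27025 genes with a window. CCAAT, the NF-Y motif common in cell cycle genes, was present for 17 of 26 (65.4%), against 42.3% of the genes tested. TTTGAA or TTCGAA, the CHR motif of genes active in mitosis, was present for 2 of 26 (7.69%), against 16.9%. None of these motifs contains another, though matches of different motifs may share bases, and a match describes letters only.

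The 30 bases around each E2F match are shown 5′ to 3′ on the gene's strand, because genes that carry the same motif differed in direction. Capitals mark the match.
Clspn: accgcgtctggGCGCGAAAgctcgaacttc
Fancg: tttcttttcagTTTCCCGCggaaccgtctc
Chek2: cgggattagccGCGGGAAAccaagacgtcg
Brca2: tttaggccacaGCGGGAAAcagacacacac
Topbp1: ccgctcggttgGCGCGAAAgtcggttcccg
Bard1: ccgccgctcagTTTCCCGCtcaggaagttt
Rad51c, upstream start: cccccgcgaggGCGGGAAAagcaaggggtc
Rad51c, downstream start: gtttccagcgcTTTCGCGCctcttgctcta

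In GRCm38.p6 these lie at chr4:126556990-126557019 on the plus strand for Clspn, and at chr4:43010335-43010364 on the minus strand for Fancg. Chek2 and Brca2 have theirs at chr5:110839820-110839849 and chr5:150522442-150522471, both on the plus strand. The Topbp1 stretch is at chr9:103305187-103305216 on the plus strand and that of Bard1 at chr1:71103163-71103192 on the minus strand. Those of Rad51c are at chr11:87404941-87404970 and chr11:87404477-87404506 on the minus strand. Counted from the start at 1, with -1 the base before it, the match begins at 22 in Clspn, -52 in Fancg, -152 in Chek2 and -168 in Brca2. Of the 7 genes, Clspn was at 0.68, Rad51c and Bard1 at 0.17 each, Topbp1 at 0.01, and Brca2, Fancg and Chek2 at -0.42, -0.44 and -0.45 on the log2 fold change scale.

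Brca1 had no E2F match by these letters, and held CCAAT upstream of its start, in capitals.
Brca1: aagactaggtagCCAATcgcaaacccagaa
The stretch lies at chr11:101552024-101552053 on the minus strand of GRCm38.p6. The log2 fold change was 0.66 for Brca1 and 0.68 for Clspn, which had an E2F match. The search read exact letters in windows of 300 bases, so a missing match does not mean that no E2F site exists. Whether the motif bears on the fold changes was not tested.

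Other genes of the same pathways were read from a list of 50, of which 48 were measured. Their median log2 fold change was 0.06, with 29 above 0 and 19 below, and 0 passed the limma test. Without control replicate 3 the median was 0.0035, with 24 above 0 and 24 below, and without control replicate 2 it was 0.098, with 35 above. At unadjusted p under 0.05, 4 were higher (2.55% of all tested genes) and 1 lower (1.51%). Rnf8, the ubiquitin ligase that marks H2AX chromatin, read 318, 323 and 395 on the Rb-null arrays, against 81.6, 161 and 112 on the control arrays. It had a log2 fold change of 1.46 (SE 0.30, limma adjusted p = 0.372), and no values overlapped. Sfr1, the partner of SWI5 in recombination, had 1.53 (SE 0.36, limma adjusted p = 0.469). Rpa2, a subunit of the single-strand DNA binding complex, had 0.92 (SE 0.34), and its second probe set 1.22. Usp1, which removes ubiquitin from FANCD2, had 0.76 (SE 0.31), with all 3 probe sets higher in each pair. Usp1 thus stood above 0 while Fancd2 and Fanci stood below it, in each of the 3 pairs.

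On the lower side of that list were Ercc1, a nuclease subunit for crosslink repair, at -2.60 (SE 0.66, limma adjusted p = 0.545), and Sem1, a small partner of BRCA2, at -0.64 (SE 0.34). Swi5, the partner of SFR1, had -0.70 (SE 0.44), and Parpbp, which restrains recombination, had -0.53 (SE 0.33). Swi5 and Sfr1 therefore lay on opposite sides of 0. Ercc1 depended on the probe set, since its others gave 0.17 and 0.09. Parpbp had a second probe set at 0.04.

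Genes of S phase and proliferation had a higher median than the repair genes. Of 31 listed genes 29 were measured, with a median log2 fold change of 0.33 and 24 above 0. The median was 0.21, with 21 genes above 0, without both arrays numbered 3, and 0.13 without control replicate 3. Groups did not overlap for 11 of the 29, each time with Rb-null higher (5.13% of all tested genes). None passed the limma test, and 4, all higher, had an unadjusted p under 0.05 (2.55% of all tested genes). Cyclin E2, Ccne2, had 1.83 (SE 0.49), the repressor E2f7 1.12 (SE 0.26), thymidylate synthase Tyms 1.02 (SE 0.26) and E2f8 0.76 (SE 0.32). The other probe sets of Tyms gave 0.42 and -0.18. Gins1 and Gins2, subunits of the replication helicase, had -0.21 and -0.11, the kinase Bub1 -0.05 and the helicase subunit Mcm3 -0.06. The lists overlap in no gene, and the difference between their medians was not tested. They also differed in brightness. The median gene stood at percentile 96.9 of mean level among all tested genes for this list, and at 64.1 for the repair and checkpoint genes. Whether brightness bears on the 2 medians was not tested. E2F matches were present for 8 of 24 of these genes with a window (33.3%), and for 7 of 26 repair and checkpoint genes (26.9%).

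**Figure D5:**
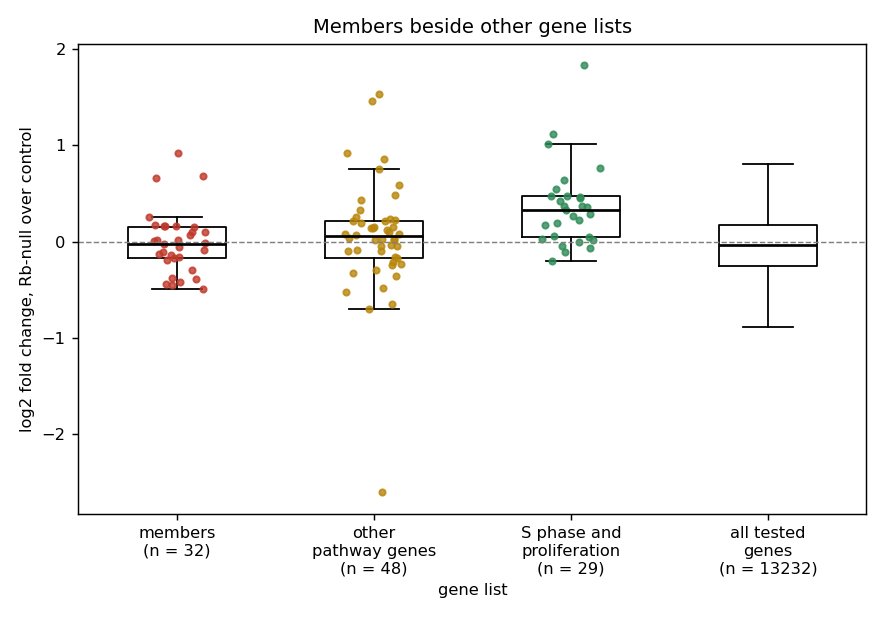
Log2 fold change of Rb-null over control (y axis) for the 32 repair and checkpoint genes, 48 other pathway genes, 29 S phase and proliferation genes and all 13232 tested genes (x axis). Boxes give quartiles with the median, whiskers reach to 1.5 times the box height, and points are single genes of the first 3 lists. The repair genes centre at -0.02 and the proliferation genes at 0.33.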

How the data were processed

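The deposited table holds one intensity per Affymetrix probe set and array on a linear scale. The sources used here do not say how the authors summarised or scaled the scans. Titles gave each array's group and number. Of 45101 probe sets, 64 control, 4 empty and 1 above the scanner's range were left out. Values were taken as log2(intensity + 16) and quantile normalized, because array medians differed by up to 0.264. Probe sets above the 40th percentile of the mean were kept, 1 per gene by highest mean. Symbols came from the platform annotation, with H2afx listed as H2ax. Of the 45032 probe sets kept, 34941 had 1 symbol, 932 several and 9159 none.

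The comparison used limma 3.58.1 under R 4.3.3 (2-sided moderated test, Benjamini-Hochberg over 13232 genes), and the fit was tested on simulated data. Fold changes are Rb-null over control. Arrays of the same number deviated together from their group means, so the number was also fitted as a block. Correlations of these deviations across genes were 0.636, 0.615 and 0.653 within numbers, against at most 0.0370 between them. Deviations from a group mean cancel out within the group, so high values within numbers force low ones between them. The contrast is therefore partly set by the centring. An exact permutation test of 3 against 3 arrays cannot go below p = 0.1.

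Values on every array are given for the 8 genes with the smallest p and those whose groups do not overlap. Other pathway genes are named up to 4 in each direction by p. Alternatives covered the offset, scaling, filter, probe set choice, moderation, array weights and arrays left out. The members and lists were chosen with earlier results of these data known. The settings for the other lists were added after the data were seen. Some items are not reported here.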

Additional observations from a re-analysis of the deposited data

How the results depend on the processing

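The number of genes called was 0 here, 0 with the replicate block and 0 with any single array left out. It was 2 with an offset of 64, 3 with array weights and 473 with the replicate block plus trend and robust moderation, where H2ax alone of the 32 genes passed. The median of the 32 genes ran from -0.20 to 0.080 with single arrays left out. Of the 32, 11 kept their sign under every setting that can change it. A further 12 changed it only with single arrays left out, and 9 changed it under another setting. With single arrays left out, the log2 fold changes that changed sign ran over these ranges: Atm from -0.064 to 0.25, Atr from -0.59 to 0.043, Bard1 from -0.17 to 0.36, Blm from -0.42 to 0.057, Brip1 from -0.029 to 0.32, Chek1 from -0.29 to 0.42, Exo1 from -0.30 to 0.035, Fanca from -0.39 to 0.042, Fancc from -0.17 to 0.60, Fance from -0.25 to 0.23, Fancf from -0.36 to 0.16, Fancl from -0.18 to 0.10, Fancm from -0.33 to 0.13, Mre11a from -0.36 to 0.51, Palb2 from -0.37 to 0.41, Rad51ap1 from -0.14 to 0.25, Rad51c from -0.23 to 0.68, Rad54b from -0.14 to 0.28, Topbp1 from -0.22 to 0.35 and Xrcc3 from -0.20 to 0.054. Without both arrays numbered 3, signs turned for Bard1 (-0.049), Palb2 (0.10), Fancm (0.038) and Topbp1 (-0.043). Array weights turned Palb2 (0.058), Fancm (0.0040) and Topbp1 (-0.045). An offset of 1 turned Rad54b (-0.011) and Mre11a (-0.013). The mean of probe sets turned Fancb (-0.015), Fance (0.10) and Fancm (0.29). Deposited scaling turned Fancl to 0.015 and median scaling to 0.016. The cause was not tested. With a filter at the 60th percentile Bard1, Atr, Fancb, Xrcc3 and Rad54b were no longer tested. Levels near the filter limit what can be read for Xrcc3, Rad54b and Bard1.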
